A study of Mus musculus with 8 samples.

Results

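The hematopoietic cytokine receptors described here are 9 genes, taken by symbol from a table of 12294 genes: Csf1r, Csf2ra, Csf2rb, Csf2rb2, Csf3r, Il3ra, Epor, Flt3 and Il6ra. All 9 were in the table, and none was removed by a filter. Their transcripts were measured in I1DN leukemic progenitor cells, the labels' name for mouse leukemia cells grown in transplanted mice and sorted as cKit-positive and CD11b-negative. The sequenced ends were 3′ mRNA ends (QuantSeq, which reads close to the polyadenylation site). The 8 libraries form 4 groups of 2, all after 5 days of treatment. The groups received AG120_AZA (both drugs), AG120, AZA or vehicle. AG120 is ivosidenib, which blocks the mutant form of the enzyme IDH1. AZA is azacitidine, a nucleoside that enters DNA and traps the methyltransferases. Every group was of transplanted I1DN cells passed through the same sort, and the host mice are not described in the labels. Cells were sorted per mouse, but the labels do not say whether the libraries of a group came from separate mice, so a p-value here covers only library-to-library spread, which may be technical.

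Cytokine receptors carry the outside signals that keep blood progenitors alive and steer them toward one lineage. The erythropoietin receptor Epor serves red cell precursors, Csf1r serves monocytes and macrophages, and Csf3r serves neutrophils. Csf2ra and Il3ra are ligand-binding chains for GM-CSF and IL-3 that signal through a beta chain. In the mouse, Csf2rb is shared by the receptors for GM-CSF, IL-3 and IL-5, while its neighbour Csf2rb2 works with IL-3 only. Flt3 marks early multipotent progenitors, and Il6ra is the ligand-binding chain for interleukin 6. Csf1r and Flt3 are receptor tyrosine kinases, and the others lack a kinase of their own and signal through JAK kinases and STAT factors.

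The promoter stretches of 3 receptors that passed the test below are shown because 2 of them were higher and 1 was lower with AG120. RefSeq (GRCm38.p6) gave promoter sequence for 7 of the 9 genes, and the entries for Csf1r and Csf2rb are missing. Each line is the 250 bases before the annotated start, on the gene's own strand, which is the minus strand for all 3. Capitals mark the words searched as GATA factor sites (the word AGATAA, the word AGATAG, the word TGATAA and the word TGATAG, on either strand).
Epor, chr9:21963577-21963826: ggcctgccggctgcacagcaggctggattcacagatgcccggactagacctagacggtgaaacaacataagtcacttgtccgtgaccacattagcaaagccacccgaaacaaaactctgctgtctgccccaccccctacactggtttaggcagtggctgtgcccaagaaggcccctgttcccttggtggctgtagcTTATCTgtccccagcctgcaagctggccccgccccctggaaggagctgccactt
Csf2rb2, chr15:78305722-78305971: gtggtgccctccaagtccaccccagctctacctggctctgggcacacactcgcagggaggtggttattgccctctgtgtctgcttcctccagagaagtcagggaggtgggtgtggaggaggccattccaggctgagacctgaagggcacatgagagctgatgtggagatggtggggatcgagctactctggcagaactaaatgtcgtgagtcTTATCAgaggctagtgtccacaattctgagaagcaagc
Il6ra, chr3:89913197-89913446: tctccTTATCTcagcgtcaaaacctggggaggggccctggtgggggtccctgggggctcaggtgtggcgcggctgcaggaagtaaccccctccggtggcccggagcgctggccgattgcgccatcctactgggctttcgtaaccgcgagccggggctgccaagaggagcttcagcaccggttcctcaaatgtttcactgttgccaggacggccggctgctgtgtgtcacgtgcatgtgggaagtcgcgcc
Each stretch held 1 such word, on the opposite strand, at 54 bases before the start in Epor, at 38 in Csf2rb2 and at 245 in Il6ra. Il3ra held 1 as well, so 4 of the 7 stretches had a match, beside 26.5% of 32851 promoter windows of the same length. The Csf2rb2 window also held the STAT word TTCNNNGAA, 15 bases before the start, which 7.02% of windows contained. The KLF word CCNCNCCC, found in 45.9% of windows, was in all 7 of these, called or not. The words were searched after the expression values were known, and a match describes these letters only.

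Expression values are the authors' deposited log2 CPM (log2 of reads scaled to one common total per library). Library depth cannot be read from them, since the values of each library had been put on a common distribution with a highest value of 13.37. The order of whole reads within a library remains, so the number of distinct values below a gene is a minimum for its reads above the lowest class, called steps here. The median gene stood on 105 to 149 steps per library. Across the 8 libraries Csf1r stood on 602 to 1660 steps, Csf2rb on 417 to 989, Epor on 61 to 550, Csf2rb2 on 53 to 277 and Csf2ra on 30 to 226. The other 4 receptors were read more thinly: Il6ra on 8 to 141 steps, Csf3r on 3 to 89, Flt3 on 0 to 43 and Il3ra on 1 to 13. Pearson's r between the 2 libraries of a group, across genes, which are not independent replicates, was 0.921 to 0.936. On the first principal component (35.7% of the variance) AG120_AZA replicate 2 lay farthest out, at 88. The sort marker Kit was present in every library, at 4.26 to 6.65 log2 CPM. Itgam, which encodes CD11b, the marker sorted against, was at 2.10 to 4.53 log2 CPM.

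In the 4 libraries with AG120, Il6ra and Csf1r fell and Epor and Csf2rb2 rose, relative to the 4 libraries without it. The test was the AG120 term of an additive limma model with AZA as the other term, over all genes, with Benjamini-Hochberg adjustment and a call at an adjusted p below 0.05. It called 4 of the 9 receptors, 2 higher and 2 lower, where 5.85% of all genes were called, 3.38% higher and 2.47% lower. The 4 libraries with AG120 and the 4 without did not overlap for 5 receptors, the called 4 and Csf2rb, against 14% of all genes (8% higher and 5.99% lower). The median difference of the 9 was -0.62 log2 units, against 0.01 for all genes. Refits without 1 library called 201 to 771 of all genes for this term, where the full fit called 719. The fewest were called without AG120 replicate 1, so a call lost in that refit need not be particular to the receptor. Such refits can leave 1 library in a compared group, so all-gene counts of the group comparisons are not given for them. In sorted bulk cells such as these, fewer cells of a type and less RNA per cell cannot be told apart.

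**Figure D1:**
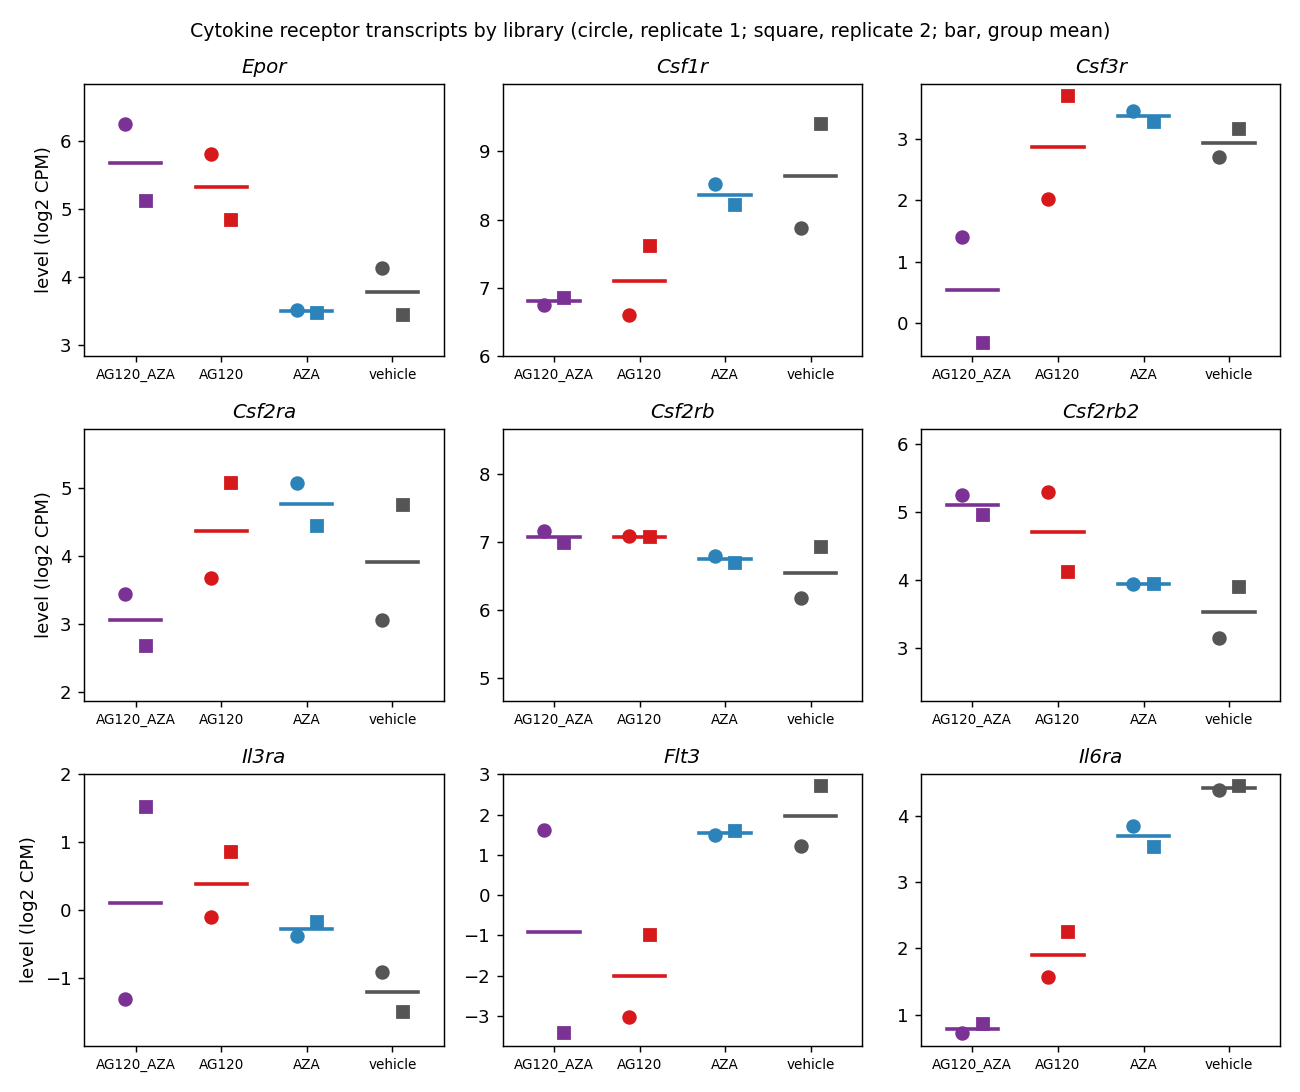
Log2 CPM of each of the 9 receptors (vertical axis, own range in each panel) in the 8 libraries, grouped by treatment along the horizontal axis. Circles and squares are replicates 1 and 2 and bars are the means of 2. Il6ra lies at 0.72 and 0.85 in AG120_AZA, against 4.39 and 4.45 in vehicle, while Epor lies higher in the 4 libraries with AG120.

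Il6ra (chromosome 3, bases 89864059 to 89913196, minus strand, GRCm38) had 0.72 and 0.85 log2 CPM in AG120_AZA, 1.56 and 2.24 in AG120, 3.85 and 3.53 in AZA, and 4.39 and 4.45 in vehicle. No neighbouring groups in that order overlapped, which describes groups of 2 libraries without a share of all genes beside it. The groups lay on 13 and 8 steps in AG120_AZA, 19 and 31 in AG120, 94 and 64 in AZA, and 122 and 141 in vehicle. With AG120 the mean was 1.34 ± 0.71 log2 CPM, against 4.06 ± 0.44 without it (SD, n = 4 each). The difference was -2.71 ± 0.32 (SE), 6.55-fold lower with AG120, with a limma adjusted p of 0.00108. Of the 9 receptors, the one for interleukin 6 had the smallest p in this test. It stayed past the threshold when each library in turn was left out, with differences of -2.89 to -2.61. The summed stem and early progenitor markers, at 334 to 428 CPM with AG120 and 875 to 1350 CPM without it, and the monocyte markers given below were also lower with AG120, and their part in the Il6ra difference was not tested. An antisense gene of Il6ra, Gm42809, overlaps it in GENCODE M21 and has no row in the table, and the sources used here state no strand setting for counting.

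The partner chain of Il6ra, Il6st (gp130), which carries the signal of the interleukin 6 family into the cell, had another order. It had 1.31 and 2.93 log2 CPM in AG120_AZA, -1.90 and -0.27 in AG120, 3.10 and 2.79 in AZA, and 1.91 and 3.01 in vehicle. The AG120 libraries lay below all others, and the AG120_AZA libraries overlapped those of vehicle. The AG120 term was -2.18 ± 0.68 (SE, limma adjusted p = 0.0808), so Il6st was not called. Its interaction of the drugs was 2.73 ± 1.15 (SE, limma adjusted p = 0.794).

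Epor (chromosome 9, bases 21958897 to 21963506, minus strand) had 6.24 and 5.11 log2 CPM in AG120_AZA, 5.80 and 4.84 in AG120, 3.52 and 3.46 in AZA, and 4.13 and 3.44 in vehicle. The libraries with AG120 lay above all those without it, while AG120_AZA overlapped AG120 and AZA overlapped vehicle. The mean was 5.50 ± 0.64 with AG120, against 3.64 ± 0.33 without it (SD, n = 4 each), a difference of 1.86 ± 0.32 (SE) and a fold of 3.64 (limma adjusted p = 0.0067). Epor stayed called in all 8 refits that each left out 1 library, with differences of 1.57 to 2.12. Without the mean-variance trend its adjusted p was 0.0574, which ended the call. Replicate 1 was the higher library in all 4 groups. Of 22 measured erythroid markers, 12 were called higher with AG120 and none lower, where 3.38% of all genes were called higher and 2.47% lower. Their median difference was 1.55, and 9 to 13 were called higher with 1 library left out. Their summed level, at 1020 to 4860 CPM with AG120 and 1870 to 5060 CPM without it, overlapped. The difference was positive for 16 of the 22. It was negative and not called for Alas2, Slc4a1 and the globin genes Hba-a1, Hba-a2, Hbb-bs and Hbb-bt. Hbb-bs had 11.33 and 11.20 log2 CPM in AG120_AZA, 9.64 and 7.39 in AG120, 10.40 and 11.63 in AZA, and 10.62 and 10.10 in vehicle. The part of erythroid cells in the Epor difference was not tested.

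Csf1r (chromosome 18, bases 61100598 to 61132149, plus strand), the receptor for M-CSF, had 6.75 and 6.84 log2 CPM in AG120_AZA, 6.59 and 7.61 in AG120, 8.52 and 8.21 in AZA, and 7.87 and 9.40 in vehicle. All 4 libraries with AG120 lay below all 4 without it, and AG120_AZA overlapped AG120 as AZA overlapped vehicle. The mean was 6.95 ± 0.46 with AG120, against 8.50 ± 0.66 without it (SD, n = 4 each), a difference of -1.55 ± 0.30 (SE) and 2.93-fold lower (limma adjusted p = 0.0117). Leaving out AG120 replicate 1 gave -1.35 with an adjusted p of 0.0547, which ended the call, and the other 7 omissions kept it. The call was also lost without the mean-variance trend (adjusted p = 0.0911). Hmgxb3 overlaps the 3′ end of Csf1r on the opposite strand, so their reads cannot be told apart without strand. Hmgxb3 itself was at 3.93 to 5.14 log2 CPM and its AG120 term was 0.43 ± 0.24 (SE, limma adjusted p = 0.302).

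Of 17 measured monocyte and macrophage markers, Csf1r included, 6 were called lower with AG120, where 2.47% of all genes were. None was called higher, 4 had a positive difference, and 4 to 8 were called lower with 1 library left out. Without Csf1r, the summed level of the other 16 was 359 and 395 CPM in AG120_AZA, 423 and 500 CPM in AG120, 1880 and 979 CPM in AZA, and 677 and 2100 CPM in vehicle. By this sum every library with AG120 lay below every library without it. By the mean log2 CPM of the same 16 genes the libraries overlapped, at 2.93 and 2.50 in AG120_AZA, 3.36 and 3.07 in AG120, 4.18 and 4.04 in AZA, and 3.00 and 4.55 in vehicle. Lyz2 (-2.10, limma adjusted p = 0.00665) and Cd68 (-1.44, limma adjusted p = 0.00398) were among those called lower, and without the mean-variance trend Lyz2 was not (adjusted p = 0.0725). The terms of Cx3cr1 (0.99), Adgre1 (0.84), Fcgr1 (1.12) and Itgax (0.03) were positive and not called. The part of monocytic cells in the Csf1r difference was not tested.

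**Figure D2:**
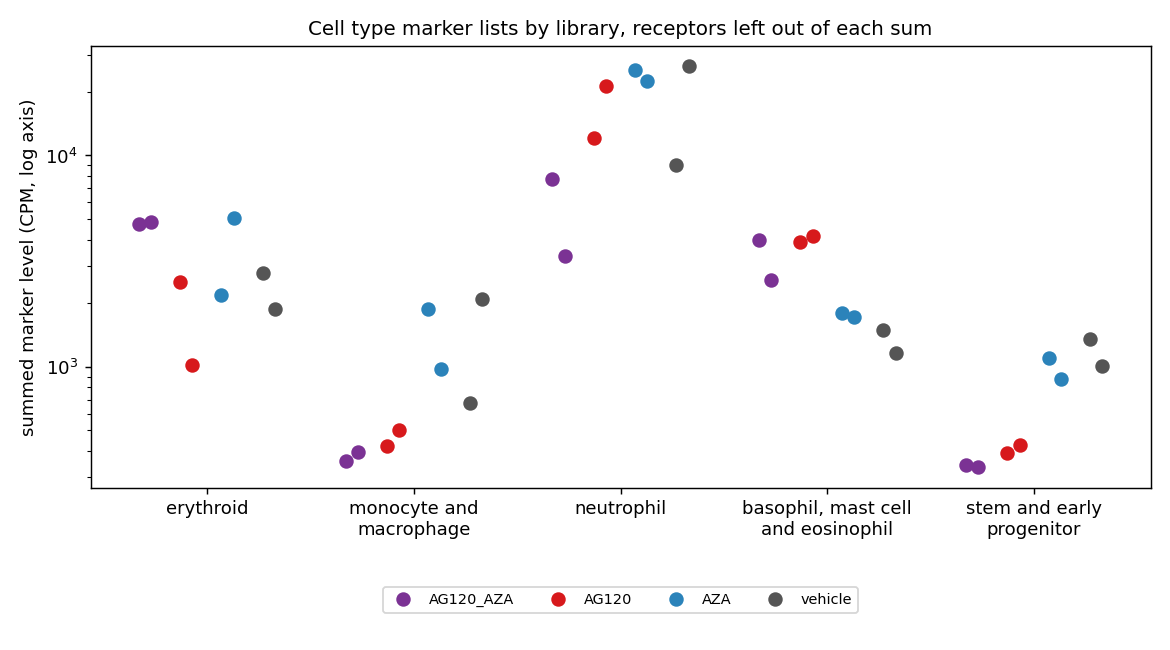
Summed CPM (log axis) of the marker lists of several blood cell types in the 8 libraries, by treatment, with receptors of the set left out of each sum. The monocyte and macrophage sums are 359 to 500 CPM with AG120 and 677 to 2100 CPM without it, and the erythroid sums overlap.

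Of the beta chains, Csf2rb2 (chromosome 15, bases 78282507 to 78305721, minus strand) had 5.25 and 4.96 log2 CPM in AG120_AZA, 5.31 and 4.12 in AG120, 3.95 and 3.94 in AZA, and 3.16 and 3.90 in vehicle. The libraries with AG120 lay above all those without it, with AG120 replicate 2 nearest to them. The mean was 4.91 ± 0.55 with AG120, against 3.74 ± 0.39 without it (SD, n = 4 each), a difference of 1.17 ± 0.29 (SE) and a fold of 2.25 (limma adjusted p = 0.0343). This call was lost in 6 of 8 refits without 1 library. The adjusted p was 0.0629 without vehicle replicate 1, 0.137 without AG120 replicate 1, 0.089 without AZA replicate 1, 0.0708 without AZA replicate 2, 0.0949 without AG120_AZA replicate 1 and 0.0593 without AG120_AZA replicate 2. It held without vehicle replicate 2 and without AG120 replicate 2, at 0.0422 and 0.0138. Without the mean-variance trend it was 0.0998.

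Csf2rb (chromosome 15, bases 78325752 to 78353847, plus strand), 20030 bases away, had 7.17 and 6.99 log2 CPM in AG120_AZA, 7.10 and 7.07 in AG120, 6.81 and 6.69 in AZA, and 6.18 and 6.93 in vehicle. The libraries with AG120 again lay above all those without it, at 7.08 ± 0.07 against 6.65 ± 0.33 (SD, n = 4 each). The difference of 0.43 ± 0.17 (SE) was not called (limma adjusted p = 0.167). Csf2rb2 made up 21 and 19.7% of the summed CPM of the pair in AG120_AZA, 22.4 and 11.4% in AG120, 12.1 and 13% in AZA, and 11 and 10.9% in vehicle. AG120 replicate 2 was therefore at the level of the libraries without AG120, and the other 3 libraries with AG120 were above them. These shares set reads beside reads and are not a ratio of molecules.

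Csf2rb and Csf2rb2 are similar in sequence, so reads of one could be counted for the other. Their longest protein-coding transcripts matched at 91.2% of 4674 aligned bases, and 19.0% of the 50-base stretches of Csf2rb2 also occurred in Csf2rb transcripts. Over the last 500 bases, near where QuantSeq reads fall, 0 of 451 such stretches were shared in either direction. In an alternative added after the values were seen, the CPM values of both were summed, and the AG120 term was 0.55 (limma adjusted p = 0.0851).

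The chains that bind GM-CSF and IL-3 were not called with AG120. Csf2ra (chromosome 19, bases 61223957 to 61228429, minus strand) had 3.44 and 2.67 log2 CPM in AG120_AZA, 3.67 and 5.06 in AG120, 5.07 and 4.45 in AZA, and 3.06 and 4.75 in vehicle. The libraries with AG120 overlapped those without it, though both AG120_AZA libraries lay below both AG120 libraries, and the AG120 term was -0.62 ± 0.52 (SE, limma adjusted p = 0.504). Il3ra (chromosome 14, bases 14346275 to 14356011, plus strand) had -1.31 and 1.51 log2 CPM in AG120_AZA, -0.09 and 0.85 in AG120, -0.37 and -0.17 in AZA, and -0.91 and -1.49 in vehicle. It was at most 13 steps above the lowest class, its libraries with AG120 overlapped those without it, and its term was 0.98 ± 0.89 (SE, limma adjusted p = 0.549).

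Csf3r (chromosome 4, bases 126024550 to 126044440, plus strand), the G-CSF receptor of the neutrophil line, had 1.41 and -0.34 log2 CPM in AG120_AZA, 2.03 and 3.70 in AG120, 3.46 and 3.28 in AZA, and 2.70 and 3.16 in vehicle. Both AG120_AZA libraries were below all others, on 20 and 3 steps, and the AG120 libraries spanned those of AZA and vehicle. The AG120 term of -1.45 ± 0.63 (SE) was not called (limma adjusted p = 0.195). Summed over 19 other neutrophil markers, the level was 7720 and 3360 CPM in AG120_AZA, 12100 and 21400 CPM in AG120, 25500 and 22500 CPM in AZA, and 9010 and 26500 CPM in vehicle. The AG120_AZA libraries had the lowest sums as well. By the mean log2 CPM of the same 19 genes they overlapped the AG120 libraries. Those means were 5.35 and 4.34 in AG120_AZA, 6.09 and 5.15 in AG120, 7.80 and 7.49 in AZA, and 5.35 and 6.01 in vehicle. Of 20 measured neutrophil markers, Csf3r included, 8 were called lower in AG120_AZA against AZA, where 1.2% of all genes were, with a median of -2.97. Csf3r was not among them. AG120_AZA against vehicle called 1 lower, where 1.38% of all genes were. AZA against vehicle called none, with 19 positive and a median of 1.77. For the AG120 term 2 of the 20 were called lower, where 2.47% of all genes were. The number was 6 without vehicle replicate 1, 7 without AG120 replicate 1, 4 without AG120 replicate 2 and 0 without any one of the other 5 libraries. The part of neutrophil RNA in the Csf3r values was not tested.

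Flt3 (chromosome 5, bases 147330741 to 147400489, minus strand) had 1.61 and -3.43 log2 CPM in AG120_AZA, -3.03 and -0.99 in AG120, 1.50 and 1.59 in AZA, and 1.22 and 2.71 in vehicle. AG120_AZA replicate 2 was in the lowest class and the AG120 libraries were 1 and 3 steps above it, while AG120_AZA replicate 1 was among the libraries without AG120. The AG120 term of -3.22 ± 1.08 (SE) was not called (limma adjusted p = 0.0992), and without AG120_AZA replicate 1 it was -4.38 (adjusted p = 0.036). Summed over 11 other stem and early progenitor markers, the level was 334 to 428 CPM with AG120 and 875 to 1350 CPM without it. Of the 12 with Flt3, 7 were called lower with AG120, where 2.47% of all genes were, or 3 without AG120 replicate 1. The part of these cells in the Flt3 values was not tested. The antisense genes of Il3ra and Flt3 in GENCODE M21 (Gm48860 and Gm26597) have no row in the table.

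**Figure D3:**
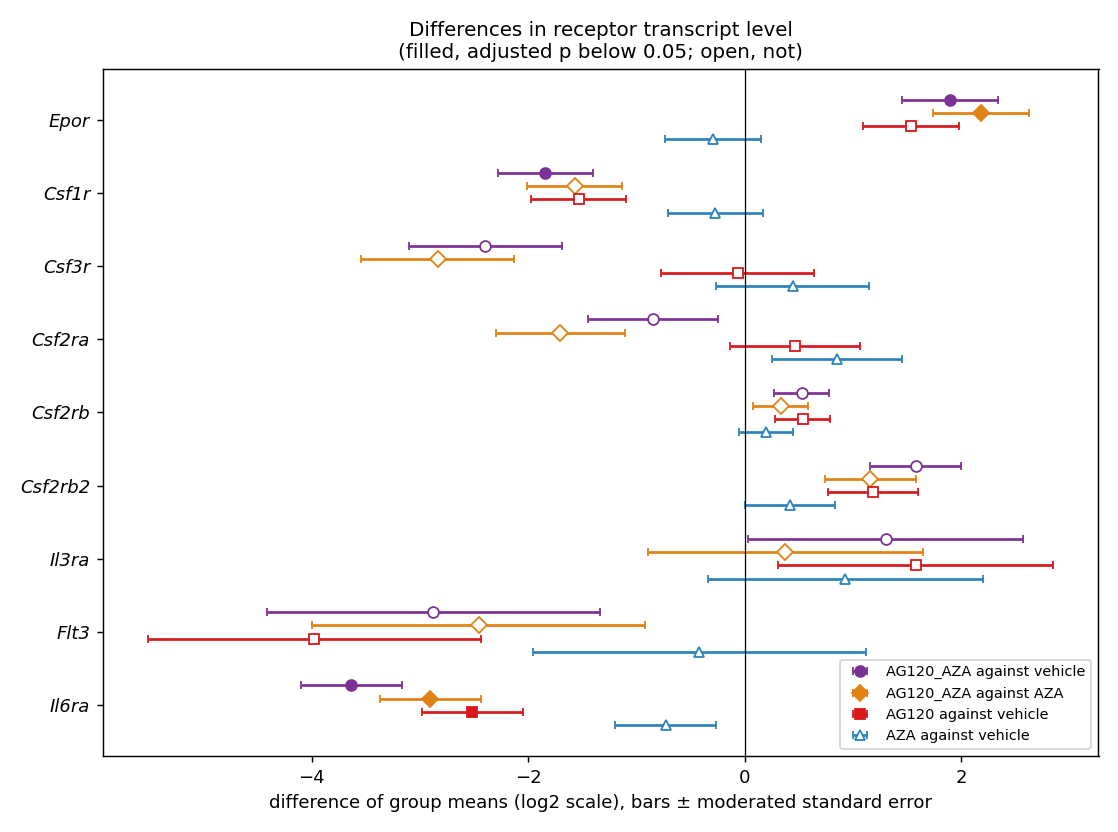
Differences in log2 CPM (horizontal axis) for the 9 receptors in 4 comparisons, the first-named group minus the second, with bars of 1 moderated standard error. Filled points have a limma adjusted p below 0.05. Il6ra lies at -3.64 in AG120_AZA against vehicle and Epor at 1.90.

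Within the groups of 2, AG120_AZA against vehicle called 3 of the 9 receptors, Il6ra and Csf1r lower and Epor higher, where 3.02% of all genes were called, 1.63% higher and 1.38% lower. Il6ra was -3.64 ± 0.47 (SE), 12.4-fold lower (limma adjusted p = 0.00384), and all 8 refits without 1 library kept its call. Epor was 1.90 ± 0.44 (SE, limma adjusted p = 0.0455) and Csf1r -1.84 ± 0.44 (SE, limma adjusted p = 0.048). Both were near the threshold: Epor stayed called only without AG120 replicate 1 or AG120 replicate 2, and ranged from 1.33 to 2.46 over the 8 refits, with adjusted p-values up to 0.173. Csf1r stayed called without vehicle replicate 1, AG120 replicate 1 or AG120 replicate 2, and was -1.07 (adjusted p = 0.182) without vehicle replicate 2. It also missed the threshold without either AZA library (0.0725 without replicate 1, 0.0748 without replicate 2) and without either AG120_AZA library (0.0889 without replicate 1, 0.231 without replicate 2). Leaving out either library of a compared group leaves 1, which is then assumed to vary like the other groups. Without the mean-variance trend Epor (adjusted p = 0.174) and Csf1r (0.208) were not called, and Il6ra was (0.0307). Csf2rb2, at 1.58 (limma adjusted p = 0.0678), and Csf3r, at -2.40 (limma adjusted p = 0.0906), were not called. Without AG120_AZA replicate 1, Csf3r was called at -3.27 (adjusted p = 0.0336).

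AG120 against vehicle called 1 of the 9, Il6ra, at -2.52 ± 0.47 (SE) and 5.73-fold lower (limma adjusted p = 0.0409), where 0.578% of all genes were called, 0.358% higher and 0.22% lower. That call held in 1 of 8 refits without 1 library, the one without AG120_AZA replicate 1 (adjusted p = 0.046), and the other 7 gave adjusted p-values of 0.051 to 0.291. It was also lost without the mean-variance trend (adjusted p = 0.102) and with only these 2 groups in the fit (0.0777). Csf1r was -1.54 ± 0.44 (SE, limma adjusted p = 0.165) and Epor 1.54 ± 0.44 (SE, limma adjusted p = 0.172). Csf3r was -0.06 (limma adjusted p = 0.98) and Csf2ra 0.46 (limma adjusted p = 0.793).

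AG120_AZA against AZA called 2 of the 9, Il6ra and Epor, where 2.26% of all genes were called, 1.06% higher and 1.2% lower. Il6ra was -2.91 ± 0.47 (SE), 7.5-fold lower (limma adjusted p = 0.0121). Leaving out AZA replicate 1 (adjusted p = 0.148) or AG120_AZA replicate 2 (adjusted p = 0.0758) ended that call. Epor was 2.18 ± 0.44 (SE), a fold of 4.55 (limma adjusted p = 0.0318). Its adjusted p was 0.207 without AZA replicate 1, 0.105 without AZA replicate 2, 0.0887 without AG120_AZA replicate 1 and 0.0671 without AG120_AZA replicate 2. Fitted with no trend, the adjusted p was 0.0535 for Il6ra and 0.157 for Epor, which ended both calls, and with vooma weights, another way to fit the trend, Il6ra was not (0.0513). Csf3r was -2.84 (limma adjusted p = 0.0632), called at -3.71 (adjusted p = 0.0223) without AG120_AZA replicate 1. Csf1r was -1.57 (limma adjusted p = 0.087), called without vehicle replicate 1 (adjusted p = 0.0288) or vehicle replicate 2 (adjusted p = 0.0272). The 3 comparisons share libraries with one another and with the AG120 term, and their values stand side by side here as descriptions.

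**Figure D4:**
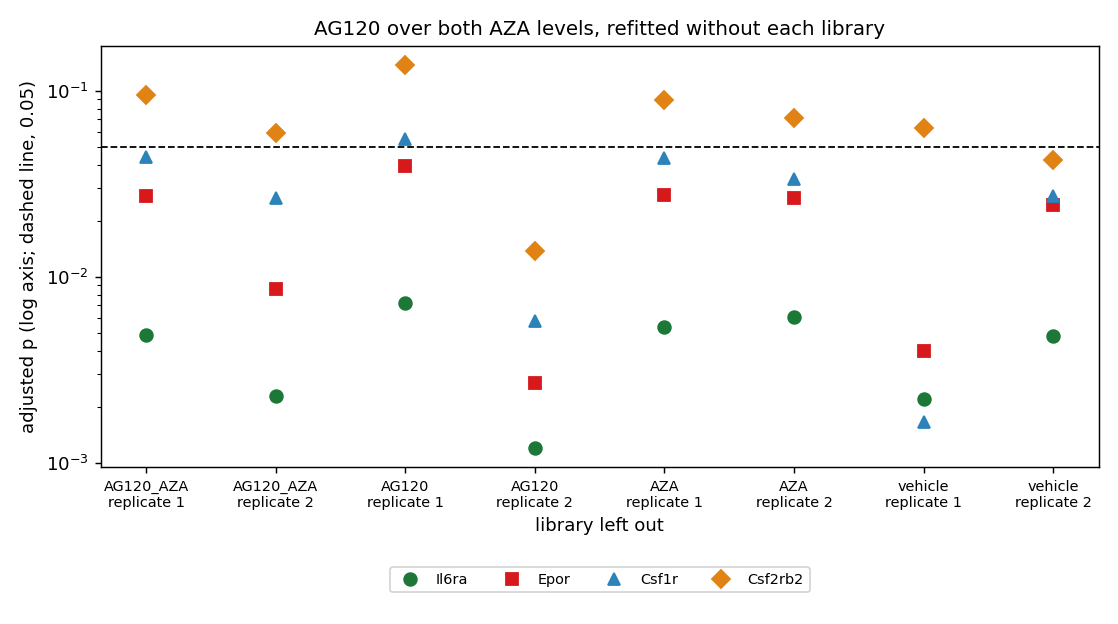
Limma adjusted p of the AG120 term (vertical log axis, dashed line at 0.05) for Il6ra, Epor, Csf1r and Csf2rb2 after leaving out the library named on the horizontal axis. Il6ra and Epor stay below the line in all 8 refits, Csf1r crosses it without AG120 replicate 1, and Csf2rb2 lies above it in 6.

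AZA alone moved none of the receptors past the threshold. AZA against vehicle called 0 of 9, with no unadjusted p below 0.05 among them, and their differences ran from -0.73 for Il6ra to 0.93 for Il3ra. Over all genes limma called 0 there, with 432 at an unadjusted p below 0.05. It called 2 genes with no trend in the fit, and 1 with only these 2 groups. The AZA term of the additive model called 0 of 9 and 0 genes (761 unadjusted), and 1 receptor had an unadjusted p below 0.05. That receptor was Il6ra, at -0.92 ± 0.32 (SE, limma adjusted p = 0.771).

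Adding AZA to AG120 called 0 of 9 and 0 genes, with 1237 genes and 2 receptors at an unadjusted p below 0.05. Csf3r was -2.33 ± 0.71 (SE, limma adjusted p = 0.384), with both AG120_AZA libraries below both AG120 libraries. Il6ra was -1.12 ± 0.47 (SE, limma adjusted p = 0.463), again with no overlap. Csf2ra was -1.31 (limma adjusted p = 0.499). In this comparison 3 of the 9 receptors did not overlap, and in AZA against vehicle 4 did not, with 0 called in either. The share of all genes is not given for groups of 2, so such a lack of overlap is a description only. A test of whether the AG120 difference depended on AZA, the interaction, called 0 of 9 and 0 genes, with 765 genes and 2 receptors at an unadjusted p below 0.05. Those were Csf3r, at -2.77 ± 1.00 (SE), and Csf2ra, at -2.17 ± 0.85 (SE), each with a limma adjusted p of 0.794. For receptors called for the AG120 term the interaction was -0.39 in Il6ra (adjusted p = 0.927), 0.65 in Epor (adjusted p = 0.864) and -0.04 in Csf1r (adjusted p = 0.991).

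Genes were ranked by how closely their profile over the 8 libraries followed that of a called receptor, as the root-mean-square difference of values centred on the gene's mean, among 8090 genes. For Il6ra, whose own root-mean-square spread was 1.45 log2 units, the nearest were Pou2f2 (0.22) and Ccl5 (0.39). Pou2f2 encodes a transcription factor and Ccl5 a chemokine. For Csf1r, with a spread of 0.92, they included Gda (0.28) and Lyst (0.28). For Epor, with a spread of 1.03, they were Aqp9 (0.37), P2ry1 (0.41) and Cd55 (0.42). For Csf2rb2, with a spread of 0.72, they were Frat1 (0.25), Ranbp2 (0.25) and Thap7 (0.27).

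Of 28 other cytokine receptors measured, 1 was called higher and 6 lower with AG120, where 3.38% of all genes were called higher and 2.47% lower, and their median difference was -0.59. Il1rl1, the receptor for interleukin 33, averaged 5.04 ± 0.92 log2 CPM with AG120 and 1.97 ± 0.47 without it (SD, n = 4 each), a difference of 3.07 ± 0.44 (SE, limma adjusted p = 0.00255). The chains for interleukin 1 (Il1r1, -2.14, limma adjusted p = 0.00891) and interleukin 4 (Il4ra, -1.46, limma adjusted p = 0.00583) fell, as did Kit (-1.33, limma adjusted p = 0.0162), the stem cell factor receptor. Ifnar2 (-0.80) and Il21r (-1.21) were also among those called lower. Il1rl1, Il1r1 and Il4ra were called in all 8 refits without 1 library. Kit was called in 6, Ifnar2 in 7 and Il21r in 2, and the number called lower ran from 2, without AG120 replicate 1, to 6, and was 3 without AG120_AZA replicate 1. Kit (adjusted p = 0.0904), Ifnar2 (0.0567) and Il21r (0.132) were not called in a fit with no trend.

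Of 11 ligand genes for these receptors 3 were measured, Csf1, Il6 and Flt3l, and none was called. Of all genes, 2.47% were called lower with AG120 and 3.38% higher. Of 11 JAK kinases and STAT factors, 1 was called lower and none higher, with a median of -0.35. That was Stat3, which carries signals of the interleukin 6 and G-CSF receptors, at 7.59 ± 0.37 log2 CPM with AG120 and 8.51 ± 0.31 without it (SD, n = 4 each), a difference of -0.92 ± 0.19 (SE, limma adjusted p = 0.016). It lost its call without AG120 replicate 1 or AZA replicate 1, and a second gene was called without vehicle replicate 2 or AG120 replicate 2. Of 37 feedback inhibitors and adaptors, 2 were called lower, a share near the 5.85% of all genes called in either direction, with a median of -0.26. Sh2b3, an inhibitor of JAK2 signalling, was among them (-1.02, limma adjusted p = 0.016), and was called in 5 of 8 refits. The number called lower was 0 without vehicle replicate 2, AG120 replicate 1 or AZA replicate 1, and 4 without vehicle replicate 1. It was 1 without AZA replicate 2 or either AG120_AZA library. The feedback genes Socs3, at -1.33 (limma adjusted p = 0.0515), and Cish, at 1.24 (limma adjusted p = 0.0613), were not called. Stat3 (adjusted p = 0.0958) and Sh2b3 (0.0709) also lost their calls in a fit with no trend.

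Of 18 measured target genes of STAT5 and STAT3, 2 were called higher and 3 lower, where 3.38% of all genes were called higher and 2.47% lower. Their median was -0.13. Bcl3 (-2.03 ± 0.30 SE, limma adjusted p = 0.00283) and the cyclin Ccnd1 (-2.15 ± 0.34 SE, limma adjusted p = 0.00447) were called lower in all 8 refits, and the kinase Pim1 (-0.95) in 3. Tfrc, the transferrin receptor, was called higher (0.84, limma adjusted p = 0.0108), in 7 refits, and Pim3 (1.09) in 4. The number called higher was 0 without AG120 replicate 1 and 1 without vehicle replicate 2, AZA replicate 1 or AG120_AZA replicate 1. Among 19 lineage regulators, 3 were called higher and 2 lower, beside the same shares of all genes, with a median of 0.10. Klf1 and Gata1, regulators of the red cell line, were at 3.36 and 1.60 and Gfi1b at 2.18, while Irf8, a regulator of the monocyte line, was at -2.18. Each of these 4 was called in all 8 refits, and Meis1 (-1.07) in 4, being lost without either AG120 library, AZA replicate 1 or AG120_AZA replicate 2. The number called lower was 4 without vehicle replicate 1. A fit with no trend ended the calls of Gata1 (adjusted p = 0.0809), Irf8 (0.0728), Meis1 (0.125), Pim1 (0.0858) and Pim3 (0.107). Spi1, which encodes PU.1, was at -0.82 (limma adjusted p = 0.0753) and not called. The lists share genes, so their counts are not separate. Klf1, Gata1 and Tfrc are also erythroid markers, and Irf8 is also a monocyte marker. Meis1 and Kit are also stem and early progenitor markers.

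Of the remaining marker lists, the basophil, mast cell and eosinophil genes summed to 2580 to 4170 CPM with AG120 and 1160 to 1790 CPM without it. Of these 16 genes, 6 were called higher, where 3.38% of all genes were, or 4 to 6 with 1 library left out. The megakaryocyte genes summed to 925 to 5450 CPM with AG120 and 3110 to 3530 CPM without it and overlapped. The dendritic cell genes summed to 56.6 to 204 CPM with AG120 and 149 to 298 CPM without it, with 1 of 8, Zbtb46, called higher. Of T and NK cell genes 6 of 15 were measured and 1 was called higher, Trbc1, in 5 of 8 refits. Of B cell genes 3 of 10 were measured, and of stromal and endothelial genes 2 of 12, with none called. Cd79a and Ms4a1, defining B cell genes, Cd3e of T cells and Col1a1 of stroma were not in the table. The part of these cell types in the receptor values was not tested.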

How the data were processed

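RNA was sequenced as QuantSeq 3′ libraries from sorted I1DN cells, 2 libraries in each of 4 groups. The submitters' processing notes name the mm10 build. The software of the authors included, per the submitters' processing notes, edgeR 3.28.1 with limma 3.42.2 under R 3.6.2. The notes also list featureCounts with Subread 1.6.3, HISAT2 2.1.0, cutadapt 1.14, and bcl2fastq 2.17.1.14. Their roles, the annotation and the strand setting are not given in the sources used here. The authors deposited voom-normalized log2 CPM per gene symbol, per the file's name. The values of 2 to the power of log2 sum to 999525 to 999562 per library.

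All 12294 genes were fitted with limma 3.58.1 in R 4.3.3 (lmFit, eBayes with a mean-variance trend, two-sided, no pseudocount added, no filter). Comparisons between groups and the interaction used 4 group means, and the terms for AG120 and AZA an additive model. Calls needed a Benjamini-Hochberg adjusted p below 0.05 over all genes. The model was tested on simulated data. Gene positions came from GENCODE M21 and promoter windows from RefSeq GRCm38.p6. The receptors, gene lists and tests were chosen with earlier results of these data known. Every receptor is named. From other lists the genes named are those called for AG120 or for AG120_AZA against vehicle, and otherwise up to 4 per comparison by smallest p. Hba-a1, Hba-a2, Hbb-bs, Hbb-bt, Alas2, Slc4a1, Cx3cr1, Adgre1, Fcgr1, Itgax, Hmgxb3 and Itgam were named for their role or direction after their values were seen. Likeness was searched among genes with a mean of at least 3 log2 CPM. Alternatives were no trend, vooma weights, filters at 3 and 5 log2 CPM, log2(CPM + 1), centring on 10 reference genes, a replicate block, only the groups compared, and each library left out. Some genes of the lists and of the likeness ranking are not reported here. Bisulfite sequencing was not analysed here.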

Additional observations from a re-analysis of the deposited data

How the results depend on the processing

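Over the alternatives other than leaving out a library, the number of receptors called changed as follows, given for AG120 against vehicle, AG120_AZA against vehicle, AG120_AZA against AZA and the AG120 term, where the reported counts were 1, 3, 2 and 4. Without the mean-variance trend the counts were 0, 1, 0 and 1, the AG120 term keeping Il6ra (adjusted p = 0.0105), and the cause was not tested. Of all 12294 genes that fit called 0, 43, 9 and 211, where the reported fit called 71, 371, 278 and 719. With vooma weights, AG120_AZA against AZA called 1 receptor, and 236 of all genes. Among genes of mean log2 CPM of at least 3 the first 3 counts were 0, 0 and 1, and among those of at least 5 all were 0, 0, 0 and 1. Of the 8478 genes under the first filter 57, 272 and 205 were called, and of the 4760 under the second 23, 82, 67 and 369. Il6ra was not tested under either filter, and Epor and Csf2rb2 not under the stricter one. Of the 9 receptors, 5 were tested under the first filter and 2 under the second, so these counts cover fewer receptors than the reported ones. The count of the AG120 term under the first filter is not given here. In AG120_AZA against vehicle, Epor (adjusted p = 0.0506) and Csf1r (0.055, and 0.075 under the stricter filter) were still tested and lost their calls, and the cause was not tested. Centring on 10 reference genes gave 2 for AG120 against vehicle and 4 for AG120_AZA against AZA, where 121 and 384 of all genes were called. After centring, the median difference of all genes was -0.20 in AG120 against vehicle (0.0019 as deposited) and 0.27 in AG120_AZA against AG120 (0.0236 as deposited). It was 0.13 in AG120_AZA against AZA (0.0365 as deposited) and 0.32 in the interaction (0.0182 as deposited). Of the reference genes 1, Snrpd3, was itself called higher with AG120. With only the groups compared in the fit, AG120 against vehicle called 0 and AG120_AZA against vehicle 1. AG120_AZA against AZA then called 3. Over all genes these fits called 18, 200 and 297. With a pseudocount of 1 CPM the receptor counts were as reported, while over all genes the counts were 94, 502, 427 and 848. AZA against vehicle, AG120_AZA against AG120, the AZA term and the interaction called 0 receptors under every alternative.

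Leaving out 1 library gave 0 to 1, 1 to 3, 0 to 3 and 2 to 4 receptors called. Over all genes the AG120 term called 201 to 771. In the AG120 term and the comparisons of AG120 and AG120_AZA with vehicle and of AG120_AZA with AZA, the values that changed sign in such refits were uncalled ones. For AG120 against vehicle, Csf2ra ranged from -0.39 to 1.31 and Csf3r from -0.90 to 0.77. For AG120_AZA against vehicle, Csf2ra ranged from -1.70 to 0.0013 and Il3ra from -0.11 to 2.71. For AG120_AZA against AZA, Il3ra ranged from -1.04 to 1.78 and Flt3 from -4.98 to 0.0625. Of the values under alternatives for the 9 receptors in those comparisons, with Il6ra, Csf3r and Csf2ra in AG120_AZA against AG120 and the interaction and Il6ra and Csf3r in the AZA term, 570 kept direction and side of the threshold, 49 lost a call, 9 gained one and 8 changed sign. The 570 include values uncalled in both fits, and only values called as reported could lose a call. This tally is therefore no measure of stability.

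The labels give each group replicates 1 and 2. The deviations of replicate 1 from the group means correlated at -0.111 to 0.194 between groups, which does not establish a pairing. Whether a number marks a batch was not tested. With a replicate block, AG120 against vehicle called 0 (Il6ra at a limma adjusted p of 0.0608), and the other counts were 3, 2 and 4. Over all genes that fit called 60, 370, 213 and 725.

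Depth is unknown, and few steps limit Il3ra, Flt3, Csf3r and the libraries of Il6ra with AG120. With 2 libraries a group, an uncalled difference does not show that groups were alike.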
